A study of Mus musculus with 50 samples.

Results

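Spinal cord RNA of wr/wr mice, which carry the wobbler mutation on both chromosomes, was hybridised on 2-colour arrays against a pool of wild-type (wt) spinal cord RNA. These are all the cord arrays of the series, 10 of its 50 arrays, chosen by their tissue and genotype labels. Pool1 and pool2 each held RNA of 4 wr/wr mice and were each put on 4 arrays, and mouse 5995, not pooled, was put on 2. Each RNA had the mutant sample in Cy5 on as many arrays as in Cy3. The remaining 40 arrays compared the testes of 10 wr/wr mice, including all 9 cord mice, with a wild-type testis pool. No age, sex, background strain or treatment is used here, because the labels read for these groups give only genotype, tissue and mouse number. The wild type is represented by its pool alone, so its animal-to-animal spread was not measured.

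Wobbler is a recessive mutation of Vps54, a subunit of the GARP complex, which tethers vesicles that return from endosomes to the Golgi. Homozygous animals lose motor neurons of the brainstem and spinal cord and are used as a model of motor neuron disease. In such tissue, microglia and astrocytes around the failing neurons become reactive, and large myelinated axons are lost. The comparison asks which transcripts differ in the cord of these animals. Vps54 itself had 0 probes with its name, so the genotype labels could not be checked on the mutated gene. Ratios carry no expression level, so the tissue label could not be checked against defining markers either, and the defining cord genes Chat and Nefl had no named probe here with all 6 means.

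Every value below is a log2 ratio of wr/wr over the wild-type pool, centred on the array's median, where 1 is a 2-fold difference. This direction was assumed, since no source used here states it. Each cord array gave a value for 18338 to 20034 probes, and the median absolute deviation of the ratios on an array ran from 0.217 to 0.49. Arrays of 1 RNA and 1 dye were averaged, which gave 6 RNA-by-dye means (3 RNAs, each in both dyes), and the Cy5 and Cy3 means of an RNA were averaged into 1 value per RNA. All 6 means existed for 16893 probes. On these, limma called 0 probes (0% of those tested) at an adjusted p under 0.05, with a smallest adjusted p of 0.518 and 1567 probes at an unadjusted p under 0.05. With the 10 arrays as units and the RNA as a random block, limma called 351 probes, 110 positive and 241 negative, but that fit takes arrays of 1 RNA as nearly independent (consensus correlation 0.037). No single gene is therefore called different below, and the genes are described by the values themselves.

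The description rests on probes with 1 sign in all 6 means. They were 640 positive probes (3.79% of 16893) and 712 negative probes (4.21%), and these shares are the background for each list below. The median size of their mean ratio was 0.40, against 0.19 over all probes, and 250 of the positive and 183 of the negative ones were at 0.5 or more. Of these, 945 had a gene symbol, from 392 genes on the positive and 518 on the negative side. At the edge of the rule, the least of the 6 values was 0.0005 in size, and a further 3667 probes had 5 of the 6 means on 1 side.

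Every sign below rests on all arrays giving mutant over wild type. If the Cy3 arrays ran the other way, 1985 probes would share 1 sign in all 6 means, 1128 positive and 857 negative, which is more than the 640 and 712 above. The mean ratio of 74 of the 126 probes named by rule would then change sign, and 0 of the 125 that are inside the rule would stay inside. Of the 40 list medians, 28 would change sign.

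**Figure D1:**
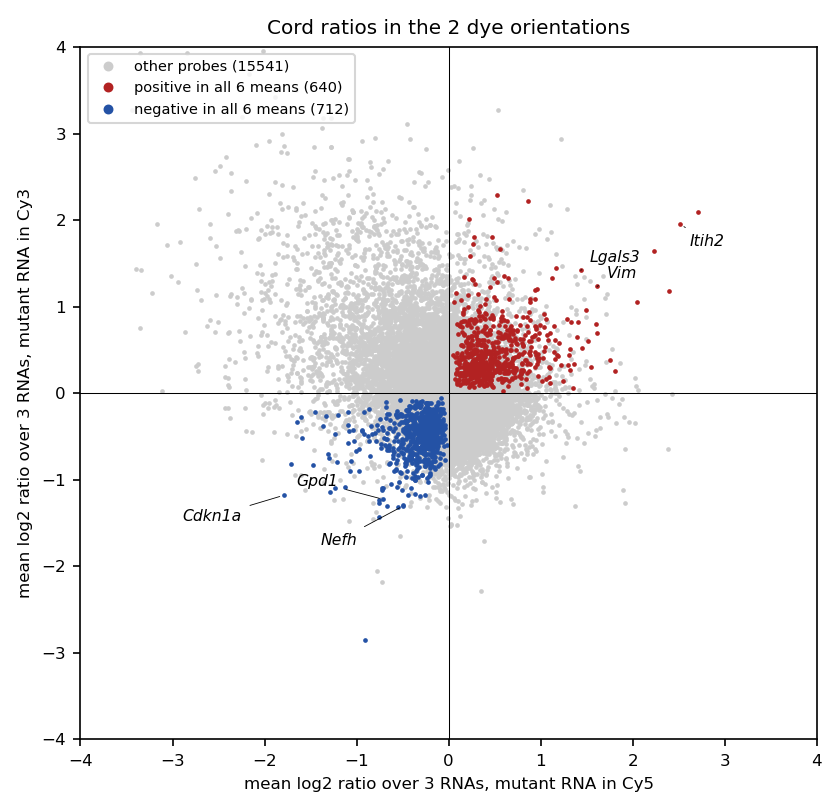
Mean log2 ratio of each probe over the 3 cord RNAs with the mutant RNA in Cy5 (horizontal) and in Cy3 (vertical), for 16893 probes, of which 2 lie outside the axes. Red points (640) were positive and blue points (712) negative in all 6 RNA-by-dye means, and many other probes lie in the quadrants where the dye orientations disagree in sign.

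The dye orientations often disagreed. Within an RNA, the Cy5 and Cy3 means had the same sign on 43.9% of probes in pool1, 51.0% in pool2 and 48.1% in mouse 5995. The Spearman rho between the Cy5 and Cy3 means of the same RNA, across 16893 probes, was -0.17, 0.0087 and -0.068 in that order, so swapping the dye on an RNA gave no agreement or a negative one over all probes. Once the dyes were averaged, the 3 RNAs correlated with each other across the 16893 probes, with a Spearman rho of 0.31 for pool1 with pool2, 0.18 for pool1 with mouse 5995 and 0.16 for pool2 with mouse 5995. These are descriptions, since the RNAs share the wild-type pool and the probes. For this reason, several lists below are given with their median in each dye. Among lists given without it, the Cy5 and Cy3 medians were 0.08 and -0.35 for synapse and general neuron genes. They were 0.18 and -0.02 for general astrocyte genes, -0.02 and -0.31 for motor neurons and 0.01 and -0.19 for iron and haem. Those of complement (0.36 and 0.22), lysosome (0.09 and 0.13) and S100 proteins and annexins (0.16 and 0.22) shared 1 sign.

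Microglia and macrophage transcripts stood mostly on the positive side, in the direction taken here. Of 24 probes for 21 genes, 10 were positive and 0 negative in all 6 means, and the list median was 0.40, with 0.34 in pool1, 0.41 in pool2 and 0.35 in mouse 5995. The dyes gave like medians, 0.43 where wr/wr RNA carried Cy5 and 0.44 where it carried Cy3. Over all probes it was -0.003. With the Cy3 sign turned the list median was 0.081. In bulk tissue, more cells of a type and more RNA per cell cannot be told apart.

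Lgals3, a galectin of activated phagocytes, stood at 1.70 in pool1, 1.5 in pool2 and 1.09 in mouse 5995 (1.43 ± 0.31, SD, n = 3, as for all cord values that follow). It was positive on all 10 arrays, from 0.13 to 2.55, so its size varied widely between arrays while its sign did not. Mpeg1, a pore-forming protein of macrophages, was tighter, with 0.71, 0.92 and 0.94 in pool1, pool2 and mouse 5995 and a lowest array of 0.51. Gpnmb, a glycoprotein of lipid-laden phagocytes, was at 0.81, 0.61 and 1.46 in the same order. The phagosome protein Cd68 was at 0.39, 0.74 and 0.67, and lay above 0 on all 10 arrays.

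Apoe, the lipid carrier that reactive glia secrete, was at 0.53 ± 0.16, the lysosomal membrane protein Laptm5 at 0.63 ± 0.12 and the lysozyme Lyz2 at 0.61 ± 0.33. Fcer1g, the signalling chain of Fc receptors, was positive in all 6 means but differed between RNAs, at 0.90, 1.53 and 0.11. Other members did not share 1 sign. Aif1, the microglial marker Iba1, averaged 0.90 ± 0.59 but was measured on 8 arrays and was negative on 2 of them. Trem2, a lipid receptor of microglia, averaged 1.22 ± 0.70, and the 2 probes of Ptprc, the pan-leukocyte CD45, were at -0.42 ± 1.01 and -0.23 ± 0.06.

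Complement followed the same side in part. Of 12 probes for 10 genes, 3 were positive in all 6 means, those of C1qa, C1qc and Serping1, and 0 were negative, with a list median of 0.22. C1qa and C1qc encode chains of the initiator C1q, which microglia make, and both stand on the microglia list too. C1qa was at 0.80, 0.65 and 0.55 in pool1, pool2 and mouse 5995, with every array between 0.50 and 0.94. C1qc was at 0.64, 0.69 and 0.43, whereas the probe of the third chain, C1qb, was at 0.11 ± 0.43. Serping1, the C1 inhibitor, was at 0.38 ± 0.27.

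The myeloid factor PU.1 drives many microglial genes, so RefSeq promoters (250 bases before to 50 after the gene start, GRCm38.p6) were searched for GAGGAAGT on both strands. The letters occurred in 3.2% of 32851 promoters and in 1 of the 24 promoters that matched 18 microglia list members, that of C1qc. It is shown because C1qc had 1 sign in all 6 means, and the capitals mark the match, on the strand opposite to the gene. It lies at chr4:136892865-136893164 on the minus strand. A match is a description of letters only.
C1qc promoter: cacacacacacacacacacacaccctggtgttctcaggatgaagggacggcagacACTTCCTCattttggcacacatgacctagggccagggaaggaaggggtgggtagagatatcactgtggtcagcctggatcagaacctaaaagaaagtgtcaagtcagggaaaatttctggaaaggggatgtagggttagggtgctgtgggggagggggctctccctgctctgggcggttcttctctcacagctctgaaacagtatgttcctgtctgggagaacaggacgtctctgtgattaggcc

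Lysosomal transcripts, which microglia and neurons share, were closer to the background. Of 35 probes, 4 were positive and 0 negative in all 6 means, with a list median of 0.11. The tetraspanin Cd63 was at 0.63, 0.61 and 0.72 in the 3 RNAs and above 0 on all 10 arrays. The hexosaminidase subunit Hexa was at 0.34 ± 0.08 and 1 of 2 probes of the mannosidase Man2b1 at 0.33 ± 0.06, the fourth being Cd68.

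Among cytokines, chemokines and their receptors, 4 of 24 probes were positive and 2 negative in all 6 means. Tnfrsf1a, a receptor of tumour necrosis factor, was at 0.50, 0.55 and 0.53 in the 3 RNAs. Its ligand Tnf averaged 1.14 ± 0.87, but the value came mostly from 2 RNAs, at 0.26 in pool1, 1.14 in pool2 and 2.00 in mouse 5995, and its array median was 0.29. The macrophage chemokine Ccl6 was at 0.54 ± 0.29. Cxcl14 and Cxcl12, chemokines of neurons, glia and stroma, each had 1 probe on the negative side, at -0.31 ± 0.16 and -0.24 ± 0.01. Their other probes went the other way, at 0.54 ± 0.85 for Cxcl14 and at 0.45 ± 0.44 and 0.77 ± 1.13 for Cxcl12. The fourth positive probe was that of Tgfb1, a growth factor of glia and immune cells, at 0.21 ± 0.09.

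**Figure D2:**
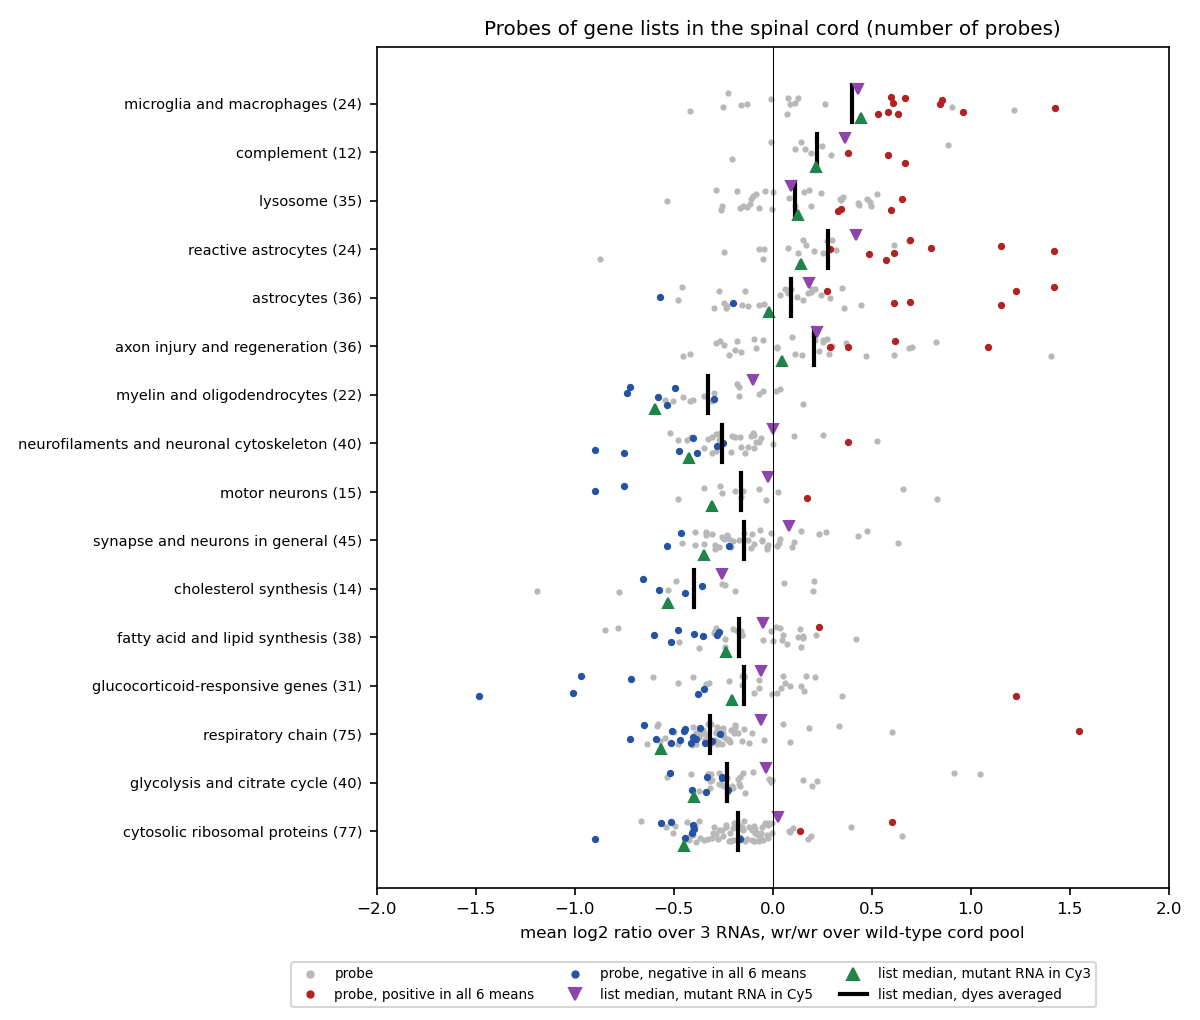
Mean log2 ratio over 3 cord RNAs for each probe of 16 gene lists, with the number of probes in brackets, red for positive and blue for negative in all 6 RNA-by-dye means. Black bars are list medians with dyes averaged and triangles are the medians in each dye; the microglia medians lie close together (0.43 and 0.44), whereas those of myelin (-0.10 and -0.59) and the respiratory chain (-0.06 and -0.56) lie apart.

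Reactive astrocyte transcripts were also mostly positive. Of 24 probes for 18 genes, 8 were positive, with 2 each from Vim and Cd109, and 0 negative in all 6 means. Of the 24 mean ratios, 19 were above 0, and the list median was 0.28. It was 0.42 on the Cy5 side and 0.14 on the Cy3 side. Vim, the intermediate filament of reactive astrocytes and of vessels and other mesenchymal cells, had the largest least value of all named probes. Its first probe was at 1.65, 1.25 and 1.37 in pool1, pool2 and mouse 5995, which is a mean fold of 2.68, and its other probe at 1.32, 1.17 and 0.97. All 10 arrays were positive for both probes, the lowest at 1.04 and 0.34.

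Gfap, the astrocyte filament protein, was at 0.41, 0.97 and 0.70 in the 3 RNAs (0.69 ± 0.28). It passed the sign rule only narrowly, with a least mean of 0.01 and 1 of 10 arrays negative. Cd44, a hyaluronan receptor, was at 0.61 ± 0.48, with a least mean of 0.02 and 2 of 10 arrays negative. The probes of Cd109, a surface protein of injured glia and other cells, were at 0.80 ± 0.29 and 0.48 ± 0.69. In mouse 5995 their dyes lay far apart, at 0.11 in Cy5 and 2.12 in Cy3 for the first probe and 2.27 and 0.29 for the other. Outside the rule, Timp1 (-0.25 ± 0.27) and Clcf1 (-0.87 ± 1.26) averaged below 0 and Hspb1 (0.69 ± 0.45) above it. The probes of Lcn2 were at -0.07 ± 0.13 and 0.17 ± 0.90. General astrocyte genes were mixed, with 6 of 36 probes positive and 2 negative in all 6 means and a median of 0.09. S100b, a calcium-binding protein of astrocytes, was on the negative side, at -0.63, -0.59 and -0.50 in the 3 RNAs. Glul, glutamine synthetase of astrocytes, had 1 probe at 1.23 ± 0.45 and another at -0.48 ± 0.04, so its 2 probes disagreed in sign.

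Other S100 proteins stood on the positive side. S100a4 was at 1.5, 0.80 and 0.92 and S100a6 at 1.13, 0.79 and 0.42 in pool1, pool2 and mouse 5995, each above 0 on all 10 arrays. These calcium-binding proteins occur in reactive glia, fibroblasts and immune cells. The S100 and annexin list as a whole had 2 of 21 probes positive and 1, S100b, negative in all 6 means, with a median of 0.17.

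Genes that neurons switch on after axon injury had 4 of 36 probes positive and 0 negative in all 6 means (list median 0.21, at 0.22 in Cy5 and 0.05 in Cy3). Sprr1a, a regeneration-associated protein, was at 1.57, 1.0 and 0.69 in the 3 RNAs, but 1 of the 9 arrays that measured it was negative. Atf3, an injury-induced transcription factor, was at 0.43, 0.45 and 0.96 and positive on all 10 arrays. Gap43, the growth cone protein, was at 0.31, 0.43 and 0.41, and 1 of the 2 probes of the lectin Lgals1 at 0.29 ± 0.03. Cryab, a small heat shock protein listed here and under myelin, had its probes at -0.45 ± 0.10 and -0.42 ± 0.27, and both missed the sign rule.

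Myelin and oligodendrocyte transcripts lay on the negative side. Of 22 probes for 17 genes, 6 were negative and 0 positive in all 6 means, and the list median was -0.33, with -0.31, -0.33 and -0.41 in the 3 RNAs. This median was unequal between dyes, -0.10 when wr/wr RNA was Cy5 and -0.59 when it was Cy3, while the same probes in testis had medians of -0.09 and 0.02. The part of dye in the list's level was not tested beyond these values. Mobp, a protein of compact myelin, had 1 probe at -0.76, -0.69 and -0.72 in the 3 RNAs and the other at -0.44, -0.34 and -0.96, and all 10 arrays were negative for both. Mbp, myelin basic protein, was at -0.70, -0.50 and -1.0 and also negative on all 10 arrays. The gap junction protein Gjb1 of oligodendrocytes was at -0.53 ± 0.04 and the iron carrier Trf at -0.49 ± 0.18 on 1 of its 2 probes. The adhesion protein Mag (-0.40 ± 0.05) and the enzyme Cnp (-0.30 ± 0.08) were negative in each RNA but not in every dye mean. Precursor genes did not share this side, with 2 of 13 probes positive and 0 negative in all 6 means.

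Neurofilaments and the neuronal cytoskeleton were likewise negative, with 7 of 40 probes negative and 1 positive in all 6 means and a median of -0.26. Here too the dyes differed, the median being 8.33e-05 on the Cy5 side and -0.42 on the Cy3 side. Probe number went with sign and dye as well: among probes 17001 to 18000, where Nefh and both Tubb4a probes lie, 8.71% of all probes were negative in all 6 means and the median Cy5 minus Cy3 difference was 0.25. The part of either in this list was not tested. The heavy and medium neurofilament chains, which set the calibre of large axons, were the largest. Nefh was at -0.85, -0.84 and -1.0 in pool1, pool2 and mouse 5995 and Nefm at -0.71, -0.90 and -0.64, and both were negative on all 10 arrays. Their dye means spread from -1.39 to -0.32 and from -1.23 to -0.08, while their shared sign is what the rule selected. Tubb4a, a beta-tubulin of oligodendrocytes and neurons, was at -0.47 ± 0.30 and -0.40 ± 0.26 on its 2 probes. Gap43 was the positive probe.

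Few other motor neuron markers were measured. The motor neuron list had 15 probes for 11 genes, of which 2 (Nefh and Nefm) were negative and 1 (1 of 2 for Cd24a, at 0.17 ± 0.13) positive in all 6 means, with a median of -0.16. Prph, peripherin, averaged -0.48 ± 0.68 and was positive in mouse 5995. The general neuron and synapse list had 3 of 45 probes negative and 0 positive, with the potassium channel Kcna1 at -0.53 ± 0.19 and the RNA-binding protein Elavl3 at -0.46 ± 0.15 on 1 of its 3 probes, the others being at -0.34 ± 0.12 and 0.47 ± 0.46. The GABA and glycine list had 2 of 15 probes positive, both for Tac1, a neuropeptide precursor rather than a GABA or glycine gene. It had 1 negative, the vesicular GABA transporter Slc32a1 at -0.38 ± 0.06. Outside the rule, Gad1 was at 0.34 ± 0.42, Gad2 at -0.26 ± 0.67 and Slc6a9 at -0.31 ± 0.10. Genes of inherited motor neuron disease had 1 of 30 probes negative, that of Hnrnpa2b1 (-0.34 ± 0.11), and 0 positive.

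Cholesterol synthesis had the most negative list median of those described here, -0.40, with 4 of 14 probes negative and 0 positive in all 6 means. The median was -0.26 in Cy5 and -0.53 in Cy3, and -0.20, -0.49 and -0.37 in pool1, pool2 and mouse 5995. Hmgcs1, the cytosolic HMG-CoA synthase near the start of the pathway, was at -0.59, -0.94 and -0.43 on 1 probe and at -0.55, -0.60 and -0.58 on the other. Every array was negative for both probes, the nearest to 0 being -0.29 for each. Ebp, a sterol isomerase, was at -0.44 ± 0.06 and Sqle, squalene epoxidase, at -0.36 ± 0.19. The pathway's transcription factor Srebf2 averaged -1.19 ± 0.99, but it was at -0.05 in pool1 and did not pass the sign rule.

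Sterol enzymes are driven through sterol response elements, and the RefSeq promoters were searched on both strands for TCACNCCAC. The letters occurred in 1.24% of all 32851 promoters and in 1 of the 13 promoters matched to 10 cholesterol list members, that of Hmgcs1. That promoter, at chr13:119690101-119690400 on the plus strand, is shown because both Hmgcs1 probes had 1 sign in all 6 means. The capitals mark the match, which begins at base 114 of the sequence.
Hmgcs1 promoter: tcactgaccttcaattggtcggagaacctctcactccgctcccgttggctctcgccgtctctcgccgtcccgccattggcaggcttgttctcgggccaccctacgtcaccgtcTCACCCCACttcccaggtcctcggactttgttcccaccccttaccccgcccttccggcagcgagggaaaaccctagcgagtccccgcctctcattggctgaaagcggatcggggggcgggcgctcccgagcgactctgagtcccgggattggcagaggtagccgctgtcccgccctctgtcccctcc

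Fatty acid and lipid synthesis had 7 of 38 probes negative and 1 positive in all 6 means, with a median of -0.17. The desaturase Scd2, the main one of brain and myelin, was at -0.60 ± 0.12 and -0.40 ± 0.16 on its 2 probes. Its relative Scd1 was at -0.48 ± 0.03, an SD over RNAs after the dyes were averaged. The dyes of Scd1 lay apart, at -0.11 in Cy5 and -0.84 in Cy3, and 2 of its 10 arrays were positive. The elongases Elovl5 and Elovl7 were at -0.51 ± 0.07 and -0.35 ± 0.10. These enzymes and the sterol enzymes above serve membrane lipid supply, on which myelin draws heavily.

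Of 31 probes for 25 genes that glucocorticoids induce in brain or other tissues, 6 were negative and 1 positive in all 6 means, and the median was -0.14 (-0.06 in Cy5 and -0.21 in Cy3). This list held the largest negative ratio of the named probes, that of Cdkn1a, the cell cycle inhibitor p21. Cdkn1a was at -1.14, -1.56 and -1.76 in pool1, pool2 and mouse 5995, a mean fold of 2.80, with all 10 arrays from -2.42 to -0.36. Gpd1, the glycerol phosphate dehydrogenase of oligodendrocytes, was at -0.88, -0.82 and -1.21 on 1 probe and at -0.77, -0.56 and -0.83 on the other, again negative on every array. Plin4, a lipid droplet coat protein, was at -0.61, -1.43 and -0.99, with 1 of 10 arrays positive. The transcription factor Klf9 was at -0.35 ± 0.08 and -0.10 ± 0.26 on its 2 probes, the first of them inside the rule. Fam107a, an actin regulator, was at -0.38 ± 0.31. The positive member was the Glul probe given above. The receptor Nr3c1 itself was at -0.14 ± 0.05, and the metallothionein Mt1 at -0.07 ± 0.39.

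The letters GNACA and TGTNC with 3 bases between them, a form of the glucocorticoid response element searched on both strands, occurred in 0.475% of all promoters. It was present in 5 of the 25 promoters matched to 19 list members, those of Fam107a, Map3k6, Mt1 and Txnip. Of these genes, Fam107a alone had a probe with 1 sign in all 6 means, and its promoter at chr14:8309730-8310029 on the minus strand (1 of 3 for the gene) is shown with the match in capitals.
Fam107a promoter: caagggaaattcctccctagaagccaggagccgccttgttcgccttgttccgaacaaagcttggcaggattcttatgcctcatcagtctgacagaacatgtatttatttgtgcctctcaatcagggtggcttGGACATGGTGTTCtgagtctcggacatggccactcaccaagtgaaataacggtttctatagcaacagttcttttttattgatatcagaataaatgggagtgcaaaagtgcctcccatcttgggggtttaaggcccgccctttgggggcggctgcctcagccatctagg

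Energy metabolism was on the negative side by many small ratios. Of 75 respiratory chain and ATP synthase probes for 53 genes, 15 were negative and 1 positive in all 6 means, with a list median of -0.31, and 6 of the 75 mean ratios were above 0. As for myelin, the dyes differed, at -0.06 in Cy5 and -0.56 in Cy3. In testis the same probes had medians of 0.29 in Cy5 and 0.11 in Cy3, so the dye difference ran the same way there with a smaller size. The ATP synthase subunit Atp5k was at -0.56, -0.60 and -1.0 in the 3 RNAs, the cytochrome oxidase subunits Cox7b and Cox7c at -0.65 ± 0.23 and -0.59 ± 0.36, and Ndufb8 of complex I at -0.52 ± 0.06. The positive probe was 1 of 2 for Atp5h, at 0.94, 1.58 and 2.12, whereas the other Atp5h probe was at -0.36 ± 0.08.

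Glycolysis and the citrate cycle had 7 of 40 probes negative and 0 positive in all 6 means (median -0.23, at -0.04 in Cy5 and -0.40 in Cy3), with the glycolytic enzyme Tpi1 at -0.41 ± 0.10 and the isocitrate dehydrogenase subunits Idh3b and Idh3g at -0.34 ± 0.06 and -0.33 ± 0.13. Cytosolic ribosomal proteins had 8 of 77 negative and 2 positive, with a median of -0.18 that was 0.03 in Cy5 and -0.45 in Cy3. Rps29 was at -0.45, -0.85 and -1.39 in pool1, pool2 and mouse 5995, and Rps16 stood on the other side, at 0.28, 0.57 and 0.96. The probes of Rpl35 disagreed, at 0.14 ± 0.05 and -0.41 ± 0.28, both inside the rule. Iron and haem genes had 4 of 21 negative and 1 positive. Among them 3 of the 4 probes of Fth1, the ferritin heavy chain, were inside the rule, at -0.66 ± 0.29, -0.65 ± 0.34 and -0.54 ± 0.41, and the fourth was at -0.47 ± 0.49.

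Agreement between different probes of a gene bears on probe identity, which the sign rule does not. How many genes would agree if their probes were unrelated was not tested. Of 2321 genes with several probes, 4 (0.172%) had every probe positive in all 6 means and 14 (0.603%) every probe negative, while 5 had a positive and a negative probe in all 6. At least 1 probe was inside the rule for 178 such genes on the positive and 234 on the negative side, so most of these had another probe outside it. The 4 positive genes were Vim, Cd109, the neuropeptide precursor Tac1 and the cell cycle factor E2f2. For Cd109, 1 probe had a highest array of 2.27 but an array median of 0.08. The 2 Tac1 probes were at 0.46, 0.70 and 0.90 and at 0.40, 0.42 and 0.28 in the 3 RNAs. E2f2 was smaller, at 0.54 ± 0.14 and 0.22 ± 0.17, with 1 and 4 of 10 arrays negative.

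Among the 14 negative genes, Gpd1, Mobp, Hmgcs1, Scd2 and Tubb4a are given above. Atp5mpl, a small subunit of ATP synthase, was the only one with 3 probes, at -0.82 ± 0.24, -0.68 ± 0.19 and -0.43 ± 0.05. The receptor phosphatase Ptprd of synapses was at -0.48 ± 0.18 and -0.39 ± 0.19, the mitochondrial adenylate kinase Ak3 at -0.49 ± 0.23 and -0.35 ± 0.10, and the vesicle protein Sypl at -0.41 ± 0.23 and -0.35 ± 0.09. Pgrmc2, a haem-binding membrane protein, was at -0.44 ± 0.10 and -0.32 ± 0.22, and the ubiquitin ligase Rnf181 at -0.34 ± 0.12 and -0.29 ± 0.22. Scrn1, Marchf6 and Tspan5 completed the set, with probe means from -0.63 to -0.20.

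**Figure D3:**
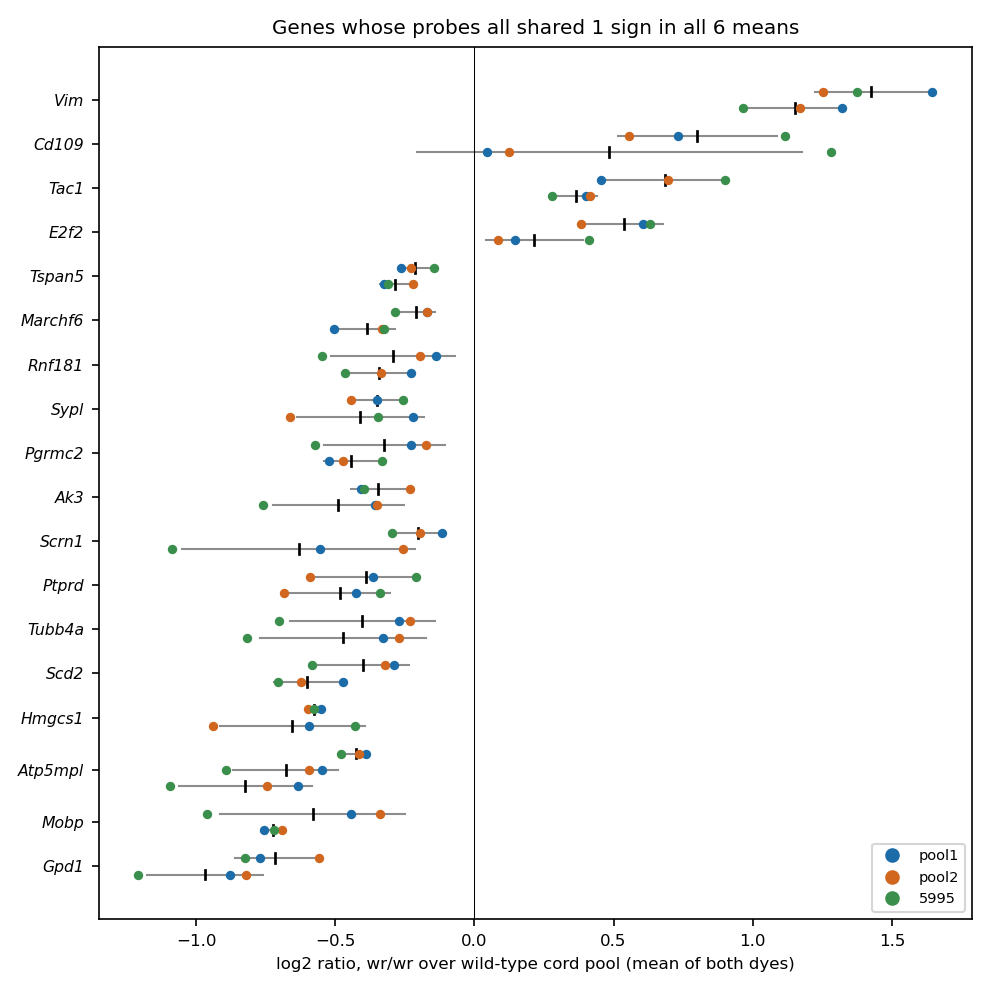
Log2 ratio in each of the 3 cord RNAs (coloured points, dyes averaged) for every probe of the 18 genes whose probes all shared 1 sign in all 6 means, with the mean (black bar) and SD (grey line) of each probe. Vim lies highest and Gpd1 lowest, and mouse 5995 is often the outermost point, as for Cd109 and Scrn1.

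The probes with the largest ratios that are not given above were of genes of several kinds. Itih2, a hyaluronan-binding serum protein, was at 1.67, 2.33 and 2.71 in the 3 RNAs (2.23 ± 0.53) and had the highest mean of the 12 positive probes named by the rule. Hpgds, the prostaglandin D synthase of microglia and mast cells, was at 0.70, 1.06 and 1.14, and Tagln2, an actin-binding protein, at 0.73, 0.99 and 0.66. Rbm3, an RNA-binding protein induced by cold, was the most even of them, at 0.80, 0.77 and 0.80. All 4 were positive on all 10 arrays.

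On the negative side, Fkbp4, a co-chaperone of Hsp90 that binds steroid receptors, averaged -1.17 ± 0.74, but ran from -0.51 in pool1 to -1.97 in mouse 5995, and its other probe was at 0.01 ± 0.70. Flacc1 (-1.02 ± 0.25) and the ribosome assembly factor Krr1 (-0.94 ± 0.45) also had another probe on the positive side, at 0.57 ± 0.73 and 0.01 ± 0.12. Pygm, the muscle-type glycogen phosphorylase that astrocytes also express, was at -0.68, -0.63 and -0.94 and negative on all 10 arrays. Morn2 was at -0.65 ± 0.11 and 1810010H24Rik at -0.78 ± 0.11, each with 1 probe and negative on every array.

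**Figure D4:**
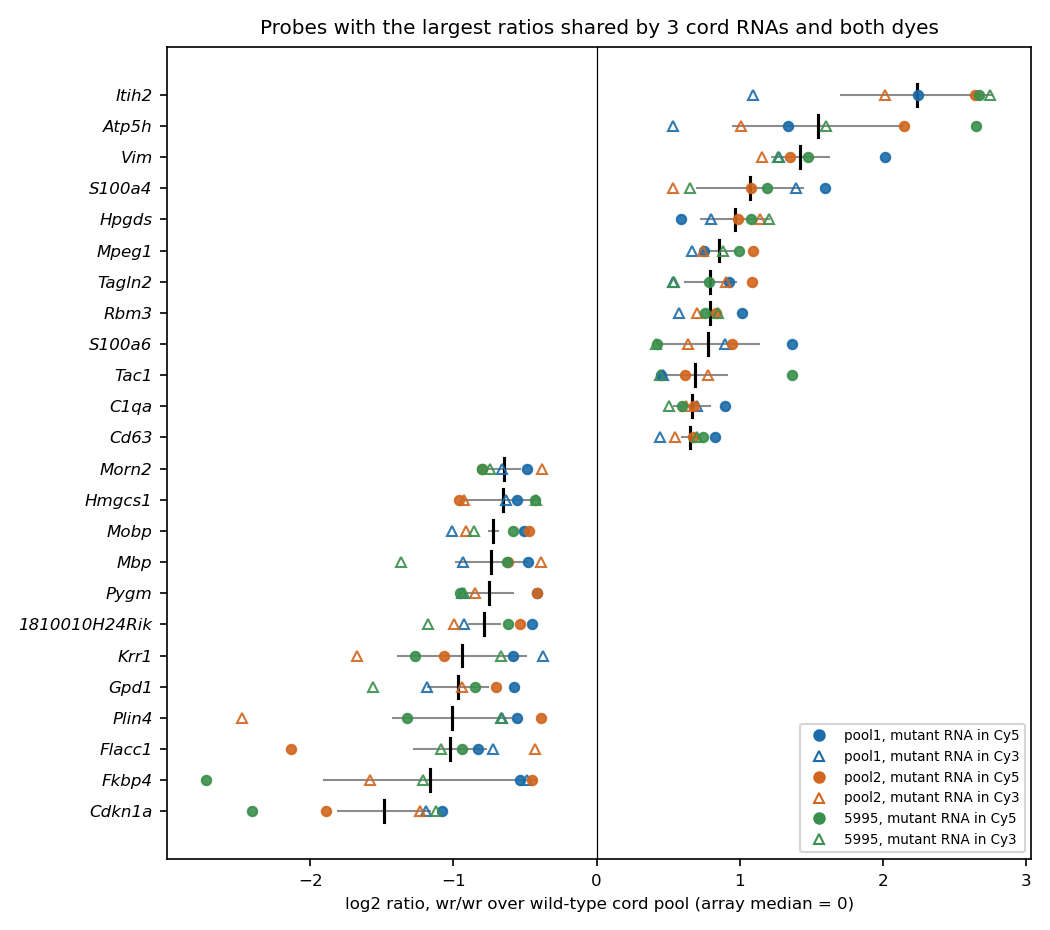
The 12 positive and 12 negative named probes with the largest least value over the 6 RNA-by-dye means, ordered by mean log2 ratio (horizontal axis). Each symbol is 1 RNA in 1 dye, black bars are means of 3 RNAs and grey lines their SD; Vim spans 1.16 to 2.01, and Fkbp4 spreads most among the negative probes, from -2.72 to -0.45.

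Mouse 5995 varied more than the pools. The median absolute deviation of the RNA's ratios was 0.16 in pool1, 0.23 in pool2 and 0.34 in mouse 5995, which had 2 arrays and 1 animal where the pools had 4 of each. Probes on which 1 RNA had the opposite sign to the others in all 6 means numbered 292 for pool1 (1.73%), 290 for pool2 (1.72%) and 400 for mouse 5995 (2.37%). Hes1, a Notch target, was among those of pool2, at 1.86 in pool1, -2.62 in pool2 and 2.73 in mouse 5995. Il6st, the shared receptor chain of interleukin-6 cytokines, was at -0.97, -0.69 and 1.13, and the ubiquitin-conjugating enzyme Ube2l3 at 1.0, 0.74 and -0.65. These 3 were picked after their values were seen.

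Testis values of the same probes, from the other affected organ, are set here beside the cord ratios. Testis list medians were near 0 for microglia (-0.08), reactive astrocytes (0.04) and myelin (-0.06). For other lists they lay opposite to cord, at 0.18 for the respiratory chain (cord -0.31) and 0.23 for cytosolic ribosomal proteins (cord -0.18). Over all 16893 probes, the mean ratios of cord and testis correlated at a Spearman rho of -0.22. Vim was at 0.40 ± 0.20 (SD, n = 10 testes, as for the next values), C1qa at -0.24 ± 0.19, Cdkn1a at -0.08 ± 0.39, Gpd1 at -0.06 ± 0.23 and Hmgcs1 at 0.14 ± 0.11. Their cord means of 1.42, 0.67, -1.49, -0.97 and -0.65 lay farther from 0. These probes were picked for large cord ratios, so smaller testis ratios are no measure of how much the organs share. Itih2 and Atp5h, picked by the same rule, were large in testis too, at -1.28 and -1.48, on the side opposite to cord.

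The difference, cord minus testis, was called by limma on 3656 of 16838 probes (21.7%) with 1 spread for both tissues. That spread is set mostly by the testes, whose median SD over RNAs was 0.174 against 0.272 in cord. With weights by tissue 25 probes were called (0.148%), and with a separate fit of each tissue 24 (0.143%), of which 1 was shared. In the paired fit (replicate block), which sets a cord RNA beside the testes of the same animals, 0 of 16550 were called at an adjusted p under 0.05, and 2323 had an unadjusted p under 0.05. Which probes differ between the organs thus depended on the model.

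Of the 24 largest named probes, 3 were among the calls of the separate fits, Itih2 (testis -1.28 ± 1.22), Atp5h (-1.48 ± 1.26) and Hpgds (-0.43 ± 0.27), with differences of 3.52, 3.02 and 1.40 and limma adjusted p of 0.0029, 0.0059 and 0.047. With weights by tissue, the calls among these 24 were Flacc1 and Fkbp4, with limma adjusted p of 0.015 and 0.045. Without pool1 the separate fits called 15 probes, 13 of them shared, without pool2 0, and without mouse 5995 29, with 18 shared. Leaving out pool2 or pool1 therefore moved the count by more than 1.5 times.

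**Figure D5:**
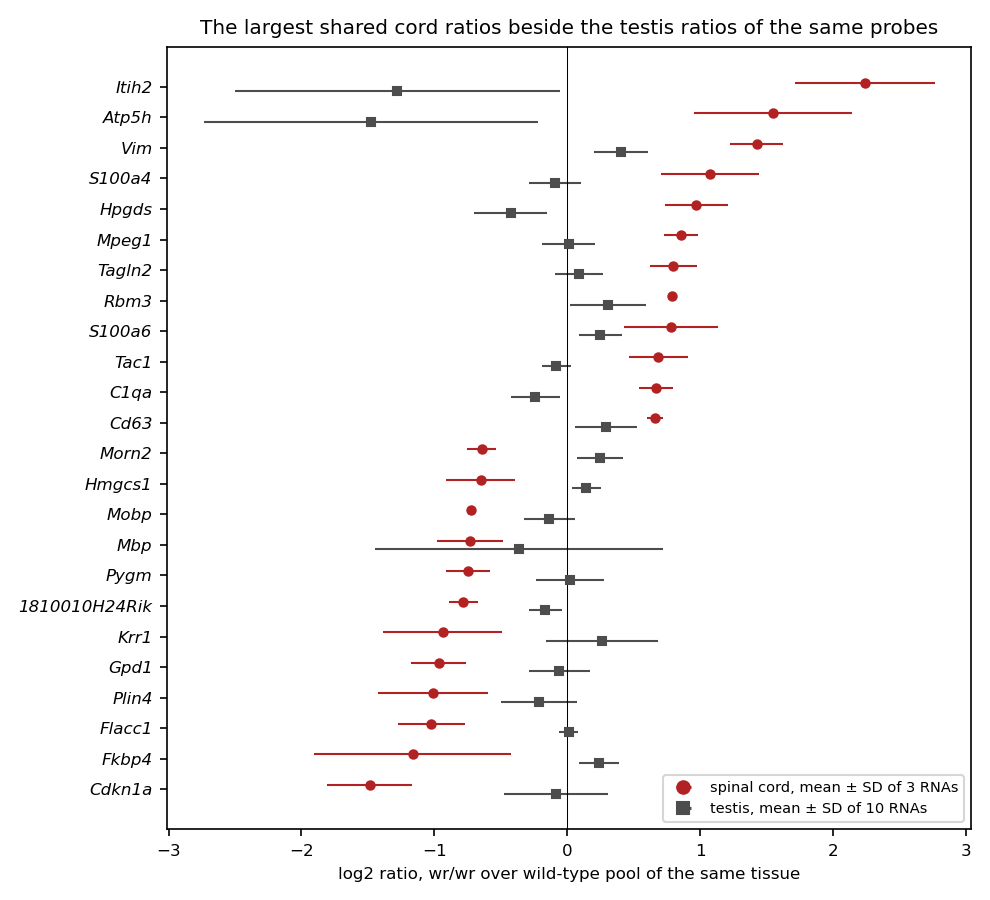
The same 24 probes with the mean ± SD of the log2 ratio over 3 cord RNAs (red circles) and over 10 testis RNAs (grey squares), each against its own wild-type pool. Vim stands at 1.42 in cord and 0.40 in testis, and Itih2 and Atp5h are positive in cord and negative, with wide SD, in testis.

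Lists of other cells and processes follow. The GARP and endosome-to-Golgi list had 2 of 27 probes negative, 1 of 2 for Sort1 (-0.40 ± 0.09, the other at -0.04 ± 0.24) and 1 of 2 for Rab6a (-0.38 ± 0.13, the other at -0.09 ± 0.17), and 0 positive, and the GARP subunits Vps52 (-0.41 ± 0.33) and Vps53 (3 probes, from 0.20 to 1.23) did not pass the sign rule. ER stress genes had 1 of 29 positive, heat shock chaperones 2 of 35 negative, and proteasome and ubiquitin genes 1 of 31 negative. Of 15 measured genes among the 15 nearest protein-coding ones on each side of Vps54, Commd1 was inside the rule, at -0.39 ± 0.06.

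As checks on other tissue in the samples, red blood cell genes had 0 of 14 probes inside the rule and skeletal muscle genes 1 positive and 2 negative of 16, the negative ones being Pygm and the myoglobin gene Mb, at -0.58 ± 0.09. The short peripheral nerve list had 1 of 4 negative, Pmp22 at -0.57 ± 0.09, a myelin protein that Schwann cells make in bulk. Endothelial genes had 1 of 14 negative, pericyte genes 0 of 14 on either side, and meningeal genes 1 of 15 positive. Testis germ cell genes, a tissue not in these samples, had 3 of 19 probes positive (15.8%, against 3.79% of all probes) and 0 negative, a larger share than the lysosome list (11.4%) or the axon injury list (11.1%). Their median was 0.12, with -0.10 in Cy5 and 0.32 in Cy3. The positive probes were those of Gapdhs at 0.77 ± 0.71, Spaca1 at 0.26 ± 0.16 and Tekt2 at 0.18 ± 0.13.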

How the data were processed

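The authors deposited 1 log2 ratio per probe and array. Background correction, normalization, scanner settings and log base are stated in no source used here; base 2 was read from 586 cord values between 15.64 and 16.52 in size, near the range of a 16-bit scanner, with no other above 9.62. Where wr/wr RNA was Cy5 these were all positive (222), and where it was Cy3 all negative (364). They were set to missing (limit 10). Per the labels' protocols, 20 µg of total RNA were labelled indirectly; the labels give 10 wild-type mice in the pool and the labelling protocol 6, which was not settled. Across 16893 probes, the Cy5 minus Cy3 difference correlated between cord and testis at a Spearman rho of 0.35 and the mean ratio at -0.22, and no sign was turned.

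Of 20355 probes, 14030 had 1 gene, 5 several and 6320 none in the platform annotation given; symbols were updated to RefSeq by gene number (13994) or accession (16), and 20 were kept. Each array was centred on its median, arrays of 1 RNA and dye were averaged, then the dyes. Arrays of 1 RNA count as 1 replicate, and p-values leave out the spread among wild-type mice. limma 3.58.1 (R 4.3.3; lmFit, eBayes, Benjamini-Hochberg) tested the 3 cord RNAs against 0, and cord minus testis on probes with at least 8 testis RNAs. The fits were tested on simulated data with known shifts; with 1 spread for both tissues the difference made too many calls, so the fits by tissue were added after seeing the data. Cord RNAs and testes share animals, which is where the pairing comes from.

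Named are, per direction, the 12 genes with the largest least value over the 6 means, the 10 several-probe genes ranked alike, up to 4 members per list inside the rule, and defining markers; other members named with values were chosen after seeing them. The members and the 40 lists were chosen with earlier results of these data known. Array number limits the precision. Alternatives changed the centring, scaling, sign, dye, probe averaging and RNAs included.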

Additional observations from a re-analysis of the deposited data

Results flagged for a closer look

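Of the 10 cord arrays, the second of mouse 5995, with the mutant RNA in Cy3, had 179 values over 10 in size, far from the rest (17 to 92). Such an isolation appears by chance in about 1 in 20 groups. These values were treated as missing.

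By separate fits of each tissue, 11 probes with a gene passed the threshold for a difference between cord and testis, all with the higher ratio in cord. Without pool2 these fits called 0 probes, and the paired fit (replicate block), which takes in that cord RNAs and testes share animals, called 0 of 16550. The differences were 3.52 for Itih2, 3.02 for Atp5h, 2.48 for Glul, 2.11 for Nt5c, 1.95 for Hsf2bp, 1.89 for Snx18, 1.68 for Nhlrc2, 1.66 for Agt, 1.40 for Hpgds, 1.32 for Slc1a2 and 1.20 for Fabp3. Nhlrc2 was at 0.02 ± 0.12 in cord and Agt at 0.25 ± 0.17, against testis ratios of -1.65 ± 0.39 and -1.41 ± 0.27, so those differences lie mostly on the testis side. Of the 11, Agt alone was also called with weights by tissue.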

How the results depend on the processing

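All values here are log2 medians or counts; alternatives by tissue were chosen after seeing the data. With arrays as units, 351 probes were called against 0 in the cord, where other alternatives kept 0. The tissue difference of 3656 called probes became 1972 with the sign of the Cy3 arrays turned, 1711 with Cy5 arrays only, 1720 with probes of a gene averaged, 25 with weights by tissue, 24 with separate fits (0 to 29 leaving out 1 RNA) and 0 with the replicate block. At least 0.2 in size in all 6 means left 178 probes, 86 positive and 92 negative, and 4 several-probe genes. Leaving out 1 RNA gave 2618 to 3322 probes (1279 to 1651 positive, 1339 to 1671 negative) and 39 to 64 several-probe genes, since fewer means must then share a sign. With the Cy3 sign turned, 1128 probes were positive and 857 negative, 0 of 125 named probes stayed inside the rule and 74 of 126 changed sign.

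The microglia median was 0.53 over probes with all 10 arrays, 0.58 over genes, 0.44 with Cy3 arrays only, 0.34 to 0.48 leaving out 1 RNA, and 0.081 turned. For neurofilaments it was -0.21 with arrays scaled, -0.27 over probes with all 10 arrays, -0.27 to -0.20 leaving out 1 RNA, 0.22 turned, 8.33e-05 in Cy5 and -0.42 in Cy3. Turned, it was 0.14 for reactive astrocytes, 0.21 for myelin, 0.11 for glucocorticoid genes, 0.021 for cholesterol synthesis and 0.26 for the respiratory chain. Cy5 arrays alone gave 0.42 for reactive astrocytes, -0.10 for myelin, -0.058 for glucocorticoid genes and -0.061 for the respiratory chain. Cy3 arrays alone gave 0.14, -0.59 and -0.56 for reactive astrocytes, myelin and the respiratory chain, and 0.049 for axon injury. The cause of these shifts was not tested.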

Other observations

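Probe numbers, whose meaning on the array is not given in the sources used here, went with both sign and dye. Among probes 9001 to 10000, 7.69% were positive and 2.33% negative in all 6 means, and among probes 17001 to 18000 it was 2.72% and 8.71%. The median Cy5 minus Cy3 difference was -0.14 in the first stretch and 0.25 in the other. Nefh, Nefm, Mobp, Tubb4a, Sqle, Kcna1 and Hmgcs1 have probes numbered between 17001 and 19000, a stretch with more negative probes than the background. The neighbouring stretch from 16001 to 17000 also had more, with 2.12% positive, 6.59% negative and a median dye difference of 0.29. Mbp, Gjb1 and Cox7b have probes there on the negative side, and Gap43 has its probe there on the positive side. The part of these stretches in the ratios of such genes was not tested.

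Some probes of like number also had like values. Itih2 (19239), Atp5h (19180) and Glul (19121) were all high in cord and low in testis, while the other probes of Atp5h (18894) and Glul (2516) were negative in cord.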
